A study of Homo sapiens with 6 samples.

Results

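The genes described here encode the proteins of the mitochondrial ribosome, named MRPL for the large and MRPS for the small subunit. They were chosen by name: every probe set whose platform annotation gives 1 gene symbol beginning MRPL or MRPS followed by a digit, with 1 such gene not analysed here. This gave 141 probe sets of 76 symbols, of which 74 are protein genes of the ribosome and 2 are not (MRPL20-AS1, an antisense RNA, and MRPL45P2, a pseudogene). All 74 protein genes were among the 13644 genes tested, with 129 of their 139 probe sets, 50 genes for the large subunit and 24 for the small.

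The study compared mutated BCWM1 cells (3 samples) with parental BCWM1 cells (3 samples) on 6 microarrays. BCWM1 is an established human line from Waldenström macroglobulinemia, in which malignant B cells that secrete IgM fill the bone marrow. The mutated cells carry, per the series title, the change C1013G in CXCR4, a chemokine receptor for CXCL12, and no change is named for the parental cells. The sources used here state neither how the mutated cells were made nor whether they are 1 clone. Separate cultures are not stated for the replicates, so the spread behind each p-value may be technical rather than that of separate cultures. Array median intensity was 30.93 to 31.83 in mutated and 28.46 to 29.13 in parental samples. All 7 annotated B cell markers and all 6 plasma cell markers had mean intensities above 100 in both groups, while no T cell, NK cell, monocyte or epithelial marker did. Of the 4 fibroblast markers COL1A1 did, at 442 in mutated and 710 in parental cells. The plasma cell markers summed to 5612 to 5935 in mutated and 8832 to 9104 in parental samples, with most of the difference in TNFRSF17 (911 in mutated and 3417 in parental cells) and the opposite direction in MZB1 (1316 in mutated and 937 in parental cells). The B cell markers summed to 27136 to 28478 in mutated and 29395 to 30665 in parental samples. The part of these differences in the results below was not tested. CXCR4 had an intensity of 4259 ± 85.5 in mutated and 4741 ± 52.1 in parental cells (SD, n = 3 each) on its brightest probe set.

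Mitochondria keep a ribosome of their own, which makes the few proteins encoded in mitochondrial DNA, all of them parts of the respiratory chain and the ATP synthase. Its rRNAs come from mitochondrial DNA, whereas every ribosomal protein is encoded in the nucleus, made in the cytosol and imported. Part of these proteins have counterparts in the bacterial ribosome and the rest are specific to mitochondria. The small subunit binds and decodes the mRNA, and the large subunit forms the peptide bond.

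Most of the mitochondrial ribosomal protein genes differed little between mutated and parental cells, and the differences that passed the test were small. Of the 74 genes, 18 rose, 5 fell and 51 did not pass (limma on log2 of the intensity plus 16, Benjamini-Hochberg adjustment over all tested probe sets, threshold 0.05). That is 31.1% called, against 49.0% of all tested genes (30.1% higher and 18.9% lower) and 47.5% of all tested probe sets. The median log2 change was 0.06 (quartiles −0.04 and 0.16), beside a median of 0.04 over all genes (quartiles −0.16 and 0.26). A gene is given by its brightest tested probe set, and positive changes mean higher in mutated cells. Mutated and parental values did not overlap in 43 genes (58.1%), of which 32 were higher and 11 lower in mutated cells, beside 61.2% of all genes.

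**Figure D1:**
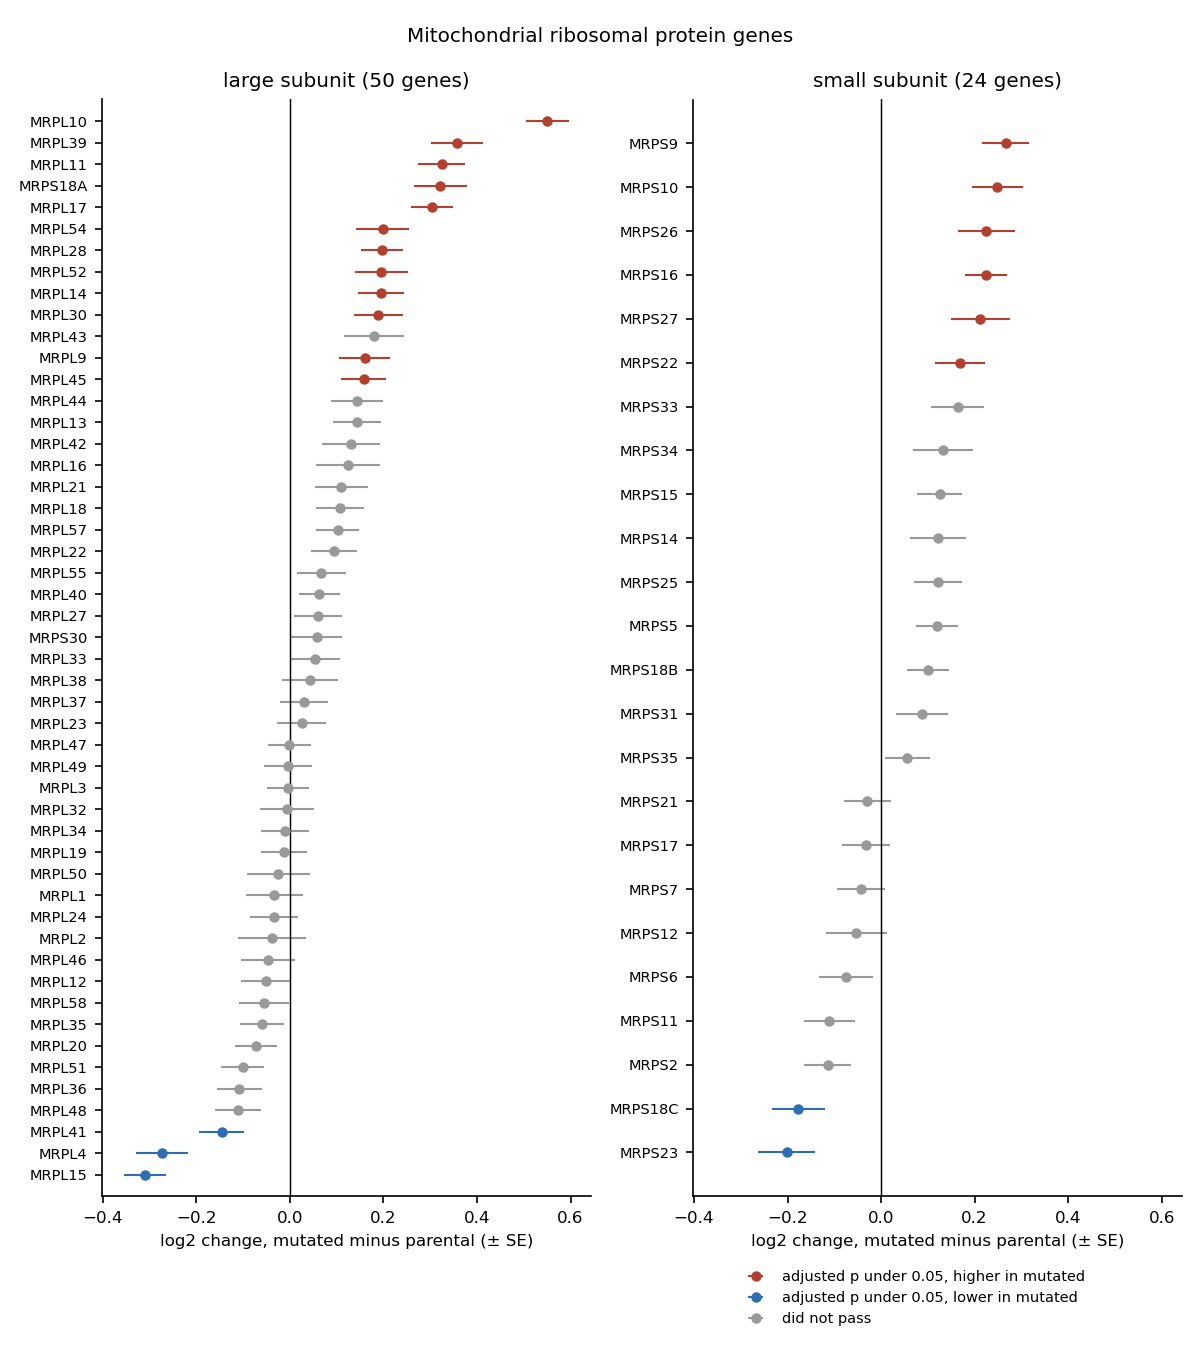
Log2 change (mutated minus parental, with its SE) of each of the 74 mitochondrial ribosomal protein genes, by subunit and in order of size; red genes passed the test as higher, blue as lower, and grey did not pass. Changes ran from −0.31 (MRPL15) to 0.55 (MRPL10), and 51 genes did not pass.

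The number of calls and the balance of higher and lower ones depended on the processing. With eBayes's trend and robust options 32 of the 74 rose and 8 fell. That is 54.1%, against 54.9% of all genes, so the lower share of calls beside all genes did not hold there. The share called among genes as bright as the members was not counted in that fit. With median centring of each array 7 rose and 11 fell, and with quantile normalization 18 rose and 8 fell. These are 24.3% and 35.1% called, against 48.4% and 50.5% of all genes in the same fits. The centring used the median over all probe sets before the filter, most of them far dimmer than the members. The share of all gene calls that were higher was 61.5% here, 46.1% with median centring and 49.4% with quantile normalization.

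The size of the changes was measured apart from the calls. Only MRPL10 reached an absolute log2 change of 0.5, which is 1.35% of the 74 genes, beside 18.0% of all tested genes. The median absolute log2 change was 0.11, against 0.21 over all genes. The members have bright probe sets, so genes of like brightness were counted as well: 4002 genes, members included, had a mean log2 value between 9.43 and 11.92, the range of the middle 90% of the members. Of these genes 53.5% were called (32.1% higher and 21.5% lower), 10.3% reached a change of 0.5, and the median absolute change was 0.18. Mutated and parental values did not overlap in 72.1% of them, against 58.1% of the 74 genes. This range was chosen after the values were seen, the shares describe the lists, and no test over the members was made.

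**Figure D2:**
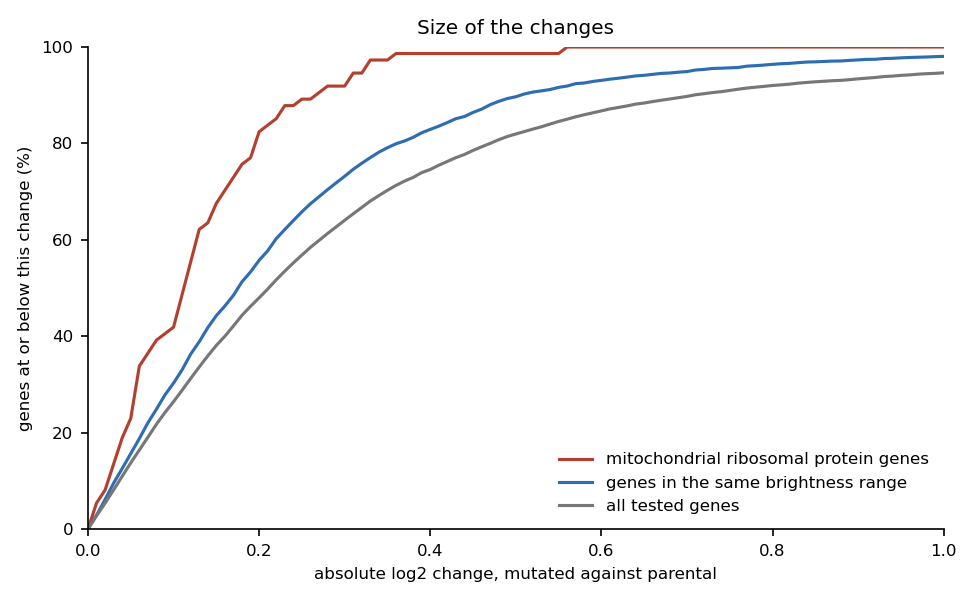
Share of genes (vertical axis, %) whose absolute log2 change between mutated and parental cells was at or below the value on the horizontal axis, for the 74 mitochondrial ribosomal protein genes, the 4002 genes of like brightness and all 13644 tested genes. The curve of the ribosomal protein genes reaches 100% soonest, with a median absolute change of 0.11 against 0.18 and 0.21.

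Summed over the 74 genes, intensity was 138672, 137782 and 136058 in mutated samples 1 to 3, against 131225, 135275 and 130340 in parental samples 1 to 3. These unscaled sums were all higher in mutated samples, but so was every array's median intensity. Divided by the array's median, an alternative chosen after seeing the data, the sums were 4413, 4455 and 4275 in mutated samples, against 4505, 4753 and 4496 in parental samples, so that all mutated sums were then lower. The direction of the sum therefore turned with the scaling. The array median is taken over all probe sets and lay between 28.46 and 31.83. The members' median intensity was 1648 in mutated and 1515 in parental cells. This scaling therefore rests on probe sets far dimmer than the members, and whether it suits them was not tested. The large subunit sum divided by the small subunit sum was 2.16, 2.16 and 2.20 in mutated samples and 2.18, 2.15 and 2.18 in parental samples, so this ratio overlapped between the groups. In bulk samples a change in the mixture of cells and a change in the RNA per cell cannot be told apart.

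In the large subunit 12 of 50 genes rose, 3 fell and 35 did not pass, with a median log2 change of 0.05. The share called was 30.0%, beside 49.0% of all tested genes and 53.5% of those of like brightness. MRPL10 and MRPL11 belong to the stalk and stalk base, where translation factors dock on the ribosome. MRPL10 had intensities of 1081, 1085 and 1088 in mutated samples, against 734, 755 and 718 in parental samples. The 3 mutated values lay close together, above every parental value. Its log2 change of 0.55 (SE 0.046, adjusted p = 1.6e-04) was the largest of the 74. MRPL11 had 2019, 1918 and 1997 in mutated samples and 1530, 1632 and 1569 in parental samples, a log2 change of 0.32 (SE 0.051, adjusted p = 0.0024). The stalk protein MRPL12, which has also been described as a partner of the mitochondrial RNA polymerase, did not pass: it had 1377 ± 44.2 in mutated and 1426 ± 54.2 in parental cells (SD, n = 3 each), with a log2 value of −0.05 (SE 0.054, adjusted p = 0.48). The stalk therefore held 2 genes that rose and 1 whose groups overlapped.

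Besides those of the stalk, the large subunit genes that rose furthest were MRPL39, MRPS18A and MRPL17. MRPL39 is specific to the mitochondrial ribosome. It had 3597, 3501 and 3344 in mutated samples, against 2810, 2733 and 2601 in parental samples, a log2 change of 0.36 (SE 0.055, adjusted p = 0.0023). Its other, dimmer probe set had 277 in mutated and 149 in parental cells and rose by 0.83 (adjusted p = 7.5e-05), so both probe sets rose and the size differed. MRPS18A carries a small subunit name but sits in the large subunit in ribosome structures. It had 887, 904 and 968 in mutated samples and 731, 761 and 705 in parental samples, a log2 change of 0.32 (SE 0.057, adjusted p = 0.0042), with 0.17 (adjusted p = 0.053) on its other probe set. MRPL17, with a bacterial counterpart, had 1983, 1986 and 2037 in mutated samples and 1635, 1591 and 1633 in parental samples, a log2 change of 0.30 (SE 0.045, adjusted p = 0.0019). In each of these 3 genes every mutated value lay above every parental value.

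MRPL28, again with a bacterial counterpart, rose by 0.20 on the log2 scale, with 911 ± 12.9 in mutated and 793 ± 10.6 in parental cells (SD, n = 3 each, adjusted p = 0.011). MRPL54, specific to mitochondria, rose by 0.20 as well, with 1308 ± 51.1 in mutated and 1137 ± 46.9 in parental cells (SD, n = 3 each, adjusted p = 0.027). The call on MRPL28 was lost with median centring, and that on MRPL54 with median centring, without the filter on dim probe sets and in 4 of the 6 fits that leave out 1 sample. The other 5 that rose were MRPL52, MRPL14, MRPL30, MRPL9 and MRPL45, with log2 changes from 0.16 to 0.20. None of these 5 calls held in every fit that leaves out 1 sample.

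MRPL15, MRPL4 and MRPL41 fell in mutated cells. MRPL15, with a bacterial counterpart, had 1963, 1984 and 1953 in mutated samples, against 2417, 2490 and 2417 in parental samples. Every mutated value lay below every parental value, and its log2 change of −0.31 (SE 0.044, adjusted p = 0.0017) was the lowest of the 74. MRPL4 had 656, 680 and 611 in mutated samples and 800, 784 and 777 in parental samples, a log2 change of −0.27 (SE 0.056, adjusted p = 0.0073). A second probe set of MRPL4 also fell, by 0.30 (adjusted p = 0.037), and the third, near 100 in both groups, did not pass (−0.09, adjusted p = 0.28). MRPL41, specific to mitochondria and also described as a BCL2-binding protein, had 934 ± 18.3 in mutated and 1035 ± 29.3 in parental cells (SD, n = 3 each), a log2 change of −0.15 (adjusted p = 0.045). A second bright probe set had 925 in mutated and 1033 in parental cells without passing (−0.16, adjusted p = 0.071). The call was lost in all 6 fits that leave out 1 sample, and a dim probe set of MRPL41, with 29.6 in mutated and 23.7 in parental cells, was called higher (0.20, adjusted p = 0.041).

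**Figure D3:**
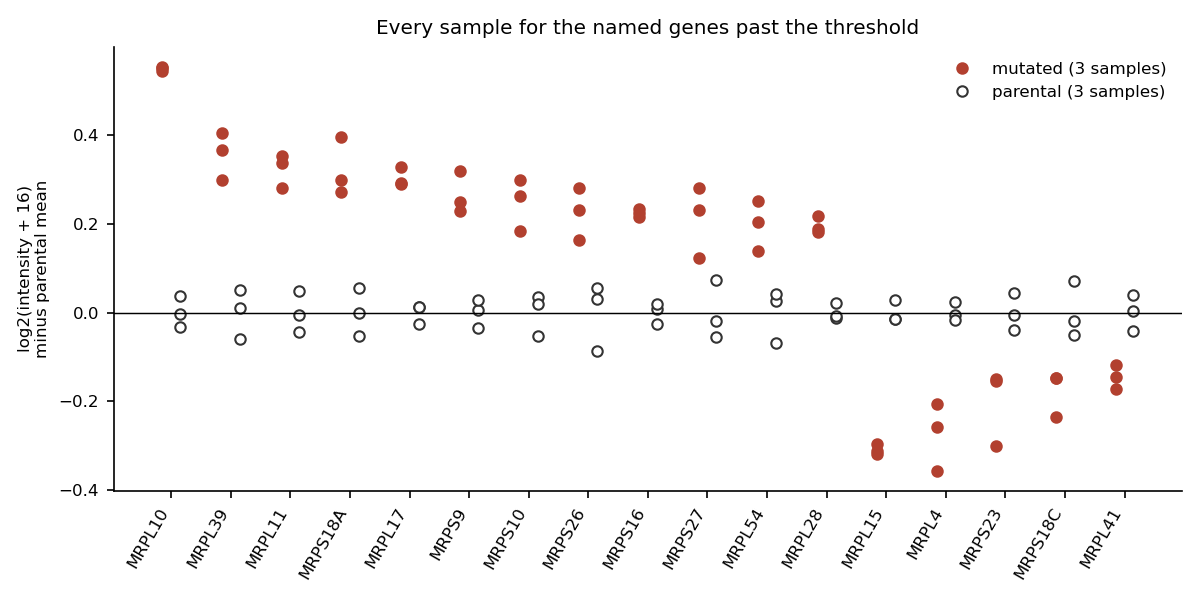
Every sample for the 17 named genes past the threshold, as log2(intensity + 16) minus the mean of the 3 parental samples; filled points are mutated and open points parental samples. The 3 mutated points of each gene lie on one side of its 3 parental points, which was a condition for being shown, with MRPL10 highest and MRPL15 among the lowest.

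The 3 highest probe set signals among the members belonged to MRPL3, MRPL51 and MRPL36, and none of them passed. MRPL3, with a bacterial counterpart, had 6152, 6022 and 6093 in mutated samples, against 5988, 6254 and 6077 in parental samples, with a log2 value of −0.004 (SE 0.046, adjusted p = 0.95). Its groups overlapped throughout. MRPL51 had a log2 value of −0.10 (adjusted p = 0.12) and MRPL36 of −0.11 (adjusted p = 0.11), and in both genes the groups did not overlap, with mutated samples lower. Both were called lower with median centring (−0.18, adjusted p = 0.028 for MRPL51 and −0.19, adjusted p = 0.023 for MRPL36) and with eBayes's trend and robust options.

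In the small subunit 6 of 24 genes rose, 2 fell and 16 did not pass, with a median log2 change of 0.11. The share called was 33.3%, again beside 49.0% of all tested genes and 53.5% of those of like brightness. MRPS9, with a bacterial counterpart, had 1082, 1137 and 1067 in mutated samples, against 911, 926 and 886 in parental samples, a log2 change of 0.27 (SE 0.050, adjusted p = 0.0051). MRPS10, also with a bacterial counterpart, had 1374, 1407 and 1299 in mutated samples and 1100, 1169 and 1157 in parental samples, a log2 change of 0.25 (SE 0.054, adjusted p = 0.0098). Neither gene's groups overlapped. The other probe sets of MRPS10 gave 0.10 and 0.17, and its call was lost with median centring.

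MRPS16, with a bacterial counterpart, had 1099, 1105 and 1091 in mutated samples, against 943, 920 and 951 in parental samples, a log2 change of 0.22 (SE 0.044, adjusted p = 0.0064). Its other probe set, with 440 in mutated and 486 in parental cells, pointed the other way without passing (−0.14, adjusted p = 0.080), so the direction of MRPS16 rests on the probe set. MRPS26 and MRPS27, both specific to mitochondria, rose by 0.23 (adjusted p = 0.022) and 0.21 (adjusted p = 0.032). MRPS26 had 1064 ± 44.4 in mutated and 908 ± 48.3 in parental cells, and MRPS27 had 1868 ± 104 in mutated and 1610 ± 75.1 in parental cells (SD, n = 3 each). The call on MRPS26 was lost in 3 and that on MRPS27 in 4 of the 6 fits that leave out 1 sample, and both were lost with median centring. MRPS22, specific to mitochondria, rose by 0.17 on 1 probe set and by 0.20 to 0.24 on 3 others, and all 4 passed. All 4 are less specific probe sets (suffix _x_at), so MRPS22 was not measured when such probe sets were left out. Whether the 4 read MRPS22 alone was not tested. The call on the first was lost in 5 of those 6 fits.

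MRPS23, specific to mitochondria, had 1885, 1878 and 1695 in mutated samples, against 2085, 2160 and 2035 in parental samples, a log2 change of −0.20 (SE 0.061, adjusted p = 0.033). MRPS18C fell as well, with 1962, 1963 and 1847 in mutated samples, against 2100, 2287 and 2146 in parental samples, a log2 change of −0.18 (SE 0.056, adjusted p = 0.039). All mutated values of both genes lay below all parental values, but the call on MRPS23 was lost in 5 and that on MRPS18C in all 6 of the fits that leave out 1 sample. MRPS18A, MRPS18B and MRPS18C are 3 relatives of 1 bacterial protein, of which the last 2 sit in the small subunit. MRPS18C is counted here with the bacterial counterparts, and the others as specific to mitochondria. Their log2 values were 0.32 for MRPS18A, which rose, 0.10 for MRPS18B, which did not pass (adjusted p = 0.11), and −0.18 for MRPS18C, which fell. The other probe set of MRPS18B, with 1274 in mutated and 1422 in parental cells, had the opposite sign without passing (−0.16, adjusted p = 0.072).

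MRPS15 did not pass on its brightest probe set, with 3775 ± 91.2 in mutated and 3459 ± 84.7 in parental cells (SD, n = 3 each) and a log2 value of 0.13 (adjusted p = 0.072). Of its other probe sets, 2 were called higher (0.17 and 0.32) and 1 lower (−0.42, adjusted p = 0.0020), the last with 80.1 in mutated and 113 in parental cells. MRPS15 and MRPL41 were the genes with probe sets called in opposite directions. Of 30 members with more than 1 tested probe set, 16 had another probe set whose log2 value had the opposite sign. MRPL2 did not pass on its brighter probe set (−0.04) but was called higher on the dimmer one (0.57, adjusted p = 0.0012), and MRPL19 did not pass on the brightest (−0.01) but was called higher on 2 dimmer ones (0.25 and 0.52). Likewise MRPL35, MRPL42, MRPL43, MRPL57, MRPS14 and MRPS31 did not pass but were called higher on another probe set. For MRPS31 that included a probe set almost as bright (mean log2 value 10.405 against 10.407), with a log2 change of 0.16 (adjusted p = 0.032). For all these genes the value or the call depends on the probe set, and what each probe set reads of the transcript was not analysed here.

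The split between proteins with a bacterial counterpart and proteins specific to mitochondria gave like counts in the large subunit. There 7 of 30 genes with a counterpart rose and 2 fell, and 5 of 20 genes specific to mitochondria rose and 1 fell. In the small subunit 3 of 14 genes with a counterpart rose and 1 fell (median log2 change −0.03), and 3 of 10 specific to mitochondria rose and 1 fell (median 0.13). The difference between these classes was not tested. Of the 2 symbols that are no ribosomal proteins, MRPL20-AS1 had 59.9 in mutated and 76.5 in parental cells without passing (adjusted p = 0.10), and MRPL45P2, with 10.7 in mutated and 4.03 in parental cells, was too dim to be tested.

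Genes for mitochondrial ribosomal proteins are commonly described as targets of the factors NRF1, GABP and YY1 and of MYC, so their promoters were searched for those factors' core letters. RefSeq sequence (GRCh38.p14), from 250 bases before to 50 bases after the gene start, was found for 67 of the 74. Both strands were searched for the NRF1 core (GCGC, any base, T, then GCGC), CCGGAAGT (ETS factors, GABP among them), AAGATGGCG (YY1) and CACGTG (the E-box of MYC). The YY1 letters stood in 12 of the 67 (17.9%), against 1.85% of 27305 promoters of that length. The ETS letters stood in 10 (14.9% against 4.44%), the NRF1 letters in 8 (11.9% against 6.28%) and the E-box in 6 (8.96% against 7.43%). Motifs of different names overlapped in 0 of the 67 promoters. Of the 17 genes that rose and have a sequence, 5 held the NRF1 letters, 3 the YY1 letters, 2 the ETS letters and 1 the E-box. Of the 4 that fell, 1 (MRPS18C) held the E-box and none held the NRF1, YY1 or ETS letters. Of the 46 that did not pass, 3 held the NRF1 letters, 9 the YY1 letters, 8 the ETS letters and 4 the E-box. The split of the motifs by call was not tested. A match is a description of the letters and no evidence of binding.

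The 250 bases before the gene start are shown for 4 genes: MRPL39, the largest rise with an entry, MRPL17 and MRPS9, which had the largest rises of the 5 with the NRF1 letters, and MRPL4, the largest fall with an entry. Capitals mark the motifs. The windows are chr21:25607482-25607731 (minus strand), chr11:6683341-6683590 (minus strand), chr2:105037819-105038068 (plus strand) and chr19:10251701-10251950 (plus strand), each written 5′ to 3′ in the direction of the gene.
MRPL39: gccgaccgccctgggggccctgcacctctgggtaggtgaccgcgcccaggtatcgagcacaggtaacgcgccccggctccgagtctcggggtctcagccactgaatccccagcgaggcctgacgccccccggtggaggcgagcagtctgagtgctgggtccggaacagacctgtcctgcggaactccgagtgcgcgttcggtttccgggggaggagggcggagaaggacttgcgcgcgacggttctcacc
MRPL17: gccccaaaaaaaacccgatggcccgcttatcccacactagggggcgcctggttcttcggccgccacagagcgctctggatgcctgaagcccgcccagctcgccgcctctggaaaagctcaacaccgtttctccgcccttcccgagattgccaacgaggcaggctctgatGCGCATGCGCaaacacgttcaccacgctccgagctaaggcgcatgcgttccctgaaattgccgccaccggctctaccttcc
MRPS9: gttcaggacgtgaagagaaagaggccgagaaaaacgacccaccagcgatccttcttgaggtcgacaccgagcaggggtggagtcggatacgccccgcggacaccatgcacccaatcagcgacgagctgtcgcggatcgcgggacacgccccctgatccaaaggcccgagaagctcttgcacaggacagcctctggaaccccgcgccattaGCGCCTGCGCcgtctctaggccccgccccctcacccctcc
MRPL4: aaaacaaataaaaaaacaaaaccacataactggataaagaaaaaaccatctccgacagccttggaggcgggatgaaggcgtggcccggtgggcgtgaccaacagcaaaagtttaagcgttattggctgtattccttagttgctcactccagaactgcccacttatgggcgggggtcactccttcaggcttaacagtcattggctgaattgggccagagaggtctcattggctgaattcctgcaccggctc
The NRF1 letters lie 81 to 72 bases before the start of MRPL17 and 40 to 31 bases before that of MRPS9. None of the 4 motifs stands in the windows of MRPL39 and MRPL4.

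The other genes of mitochondrial translation were counted from 7 lists, to be read beside 49.0% of all genes called (30.1% higher and 18.9% lower). The proteins of the ribosome that bear other names did not pass: log2 values were 0.10 for DAP3, a GTP-binding protein of the small subunit, 0.09 for PTCD3, 0.04 for CHCHD1 and 0.11 for GADD45GIP1, with adjusted p from 0.17 to 0.56. Of 25 genes for ribosome assembly and rRNA modification, 5 rose and 6 fell, against 2 higher and 8 lower with median centring and 3 and 7 with quantile normalization. The rRNA methyltransferase gene TFB1M rose to 1285 ± 39.3 in mutated cells, against 1042 ± 12.95 in parental cells (SD, n = 3 each), a log2 change of 0.30 (adjusted p = 0.0027), and NOA1, a GTPase needed for small subunit assembly, rose by 0.29 (adjusted p = 0.0032). The RNA helicase gene DHX30 fell to 464 ± 8.45 in mutated cells, against 610 ± 39.1 in parental cells (SD, n = 3 each), a log2 change of −0.38 (adjusted p = 0.0025), and NSUN4, an rRNA methyltransferase, fell by 0.30 (adjusted p = 0.0042). The call on TFB1M was lost without the less specific probe sets (0.07, adjusted p = 0.50), and that on DHX30 as the mean of its probe sets (−0.11, adjusted p = 0.094).

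Of 15 translation factor genes 2 rose, 1 fell and 12 did not pass. MTRFR, which acts in the rescue of stalled mitochondrial ribosomes, had 1185, 1093 and 1250 in mutated samples, against 837, 848 and 900 in parental samples, a log2 change of 0.44 (SE 0.066, adjusted p = 0.0020). TUFM, the elongation factor that brings tRNAs to the ribosome, rose by 0.19 (adjusted p = 0.018), while GFM1, the elongation factor of translocation, fell by 0.21 (adjusted p = 0.010). The call on TUFM was lost with median centring (0.12, adjusted p = 0.13), as the mean of its probe sets (0.03, adjusted p = 0.63) and in 3 of the 6 fits that leave out 1 sample. The messenger-stabilising partners LRPPRC and SLIRP did not pass (0.01 and 0.09). Of 20 genes for mitochondrial tRNA charging, 7 rose and 2 fell, against 4 and 3 with median centring and 6 and 4 with quantile normalization. HARS2, for histidine, rose by 0.36 (adjusted p = 0.0024), and PARS2, for proline, rose to 79.4 ± 10.5 in mutated cells, against 45.6 ± 6.60 in parental cells (SD, n = 3 each). The 2 that fell were GARS1 (−0.18, adjusted p = 0.022), which also serves the cytosol, and GATB (−0.24, adjusted p = 0.049). Neither passed when dim probe sets were kept in (adjusted p = 0.052 for GARS1 and 0.091 for GATB). Leaving out 1 sample ended the call on GARS1 in 3 and that on GATB in 5 of 6 fits, and GATB was also lost with array weights, with a pseudocount of 1 and without the less specific probe sets.

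Of 16 genes for mitochondrial DNA and its transcription and RNA processing, 3 rose and 4 fell, against 2 higher and 7 lower with median centring. POLRMT, the mitochondrial RNA polymerase, had 162, 183 and 149 in mutated samples, against 234, 242 and 235 in parental samples, a log2 change of −0.49 (SE 0.076, adjusted p = 0.0024). PNPT1, an RNA exonuclease, fell by 0.33 (adjusted p = 0.0023), while the nuclease genes MGME1 (0.40, adjusted p = 5.4e-04) and PRORP (0.48, adjusted p = 8.8e-04) rose. MGME1 had mean intensities of 2171 in mutated and 1645 in parental cells. PRORP was dim, with 60.9 in mutated and 39.3 in parental cells. Of 8 regulators of mitochondrial gene programs 5 fell and 3 did not pass, and 5 were also lower with median centring and with quantile normalization. The number lower was 3 without mutated replicate 2, parental replicate 1 or parental replicate 2. PPARGC1B, a coactivator, had 442, 466 and 461 in mutated samples, against 597, 617 and 634 in parental samples, a log2 change of −0.42 (SE 0.050, adjusted p = 7.3e-04). ESRRA, a nuclear receptor, fell by 0.20 (adjusted p = 0.013), as did GABPB1 (−0.27), PPRC1 (−0.25) and MYC (−0.17). NRF1 (0.03), GABPA (0.01) and YY1 (−0.01) did not pass. A median log2 change of −0.19 in this list stood beside 0.06 in the ribosomal protein genes and 0.04 over all genes.

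The products of the mitochondrial ribosome are encoded in mitochondrial DNA, and 7 of those genes were tested. ND6 rose to 599 ± 20.2 in mutated cells, against 465 ± 6.47 in parental cells (SD, n = 3 each), a log2 change of 0.35 (SE 0.049, adjusted p = 0.0014). The other 6 did not pass: log2 values ran from −0.08 (ATP6) to 0.05 (ND2), and COX2 had 15352 ± 382 in mutated and 15261 ± 518 in parental cells (SD, n = 3 each). These 6 were far brighter than ND6, with mean log2 values from 12.9 (ND2) to 13.9 (COX2), against 9.09. COX2 had the highest mean of all tested genes. Whether probe sets this bright still show a difference was not tested.

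**Figure D4:**
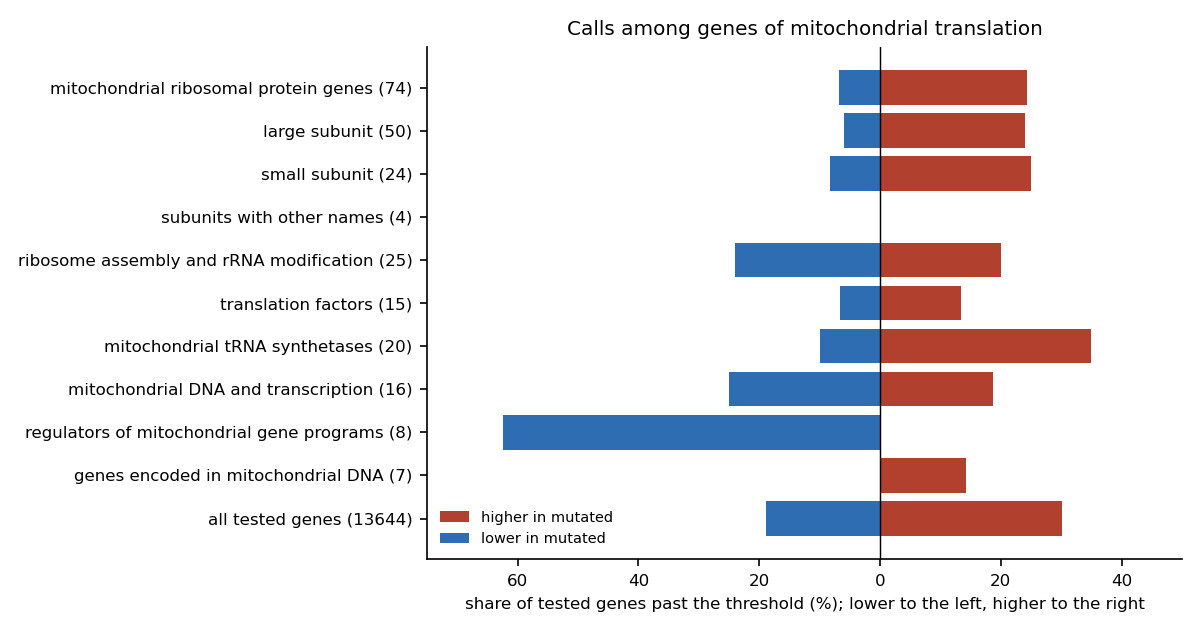
Share of tested genes past the threshold as higher (right, red) or lower (left, blue) in mutated cells, for the mitochondrial ribosomal protein genes, their subunits, 7 lists of mitochondrial translation and all tested genes, with the number of tested genes in brackets. The ribosomal protein genes had 18 of 74 higher and 5 of 74 lower, and the regulators had 5 of 8 lower.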

How the data were processed

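Values are linear intensity values per probe set as deposited by the authors, from biotin-labelled cRNA per the labels' protocols. The sources used here do not state the summary method, background correction or normalization. Columns were matched to samples by name, and 0 value columns belonged to no sample. The table holds 54613 probe sets. Intensities were transformed as log2(intensity + 16), which understates the fold change of dim genes. After the dimmest 40% by mean were left out, 32768 remained for limma 3.58.1 in R 4.3.3 (lmFit, then eBayes, with group as the only term and two-sided tests). P-values were Benjamini-Hochberg adjusted over all of them. Only probe sets of 1 gene symbol were named, and the brightest tested one stood for its gene. All 76 symbols matched RefSeq (GRCh38.p14) by Entrez ID and 0 changed.

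The rule named up to 12 members per direction past the threshold with groups that do not overlap, members with opposite calls, the 3 brightest members and 2 genes per list and direction. Other genes named were chosen after their values were seen. Members and lists were chosen with earlier results of these data known. The 17 alternatives were 2 scalings, 2 filters, 2 variance models, pseudocounts of 1 and 64, the replicate number as a block, 2 probe set rules and each sample left out. The procedure was tested on simulated data. The 6 arrays limit the precision. Figures used matplotlib 3.10.9 in Python 3.11.15.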

Additional observations from a re-analysis of the deposited data

How the results depend on the processing

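The calls on MRPL10, MRPL39, MRPS18A and MRPS9 (higher) and MRPL15 (lower) held under all 17 alternatives, and those on MRPL11 and MRPL17 under the 16 that measure them. The other 16 of 23 member calls were lost under at least 1. Against 18 higher and 5 lower member calls, median centring gave 7 and 11, no filter on dim probe sets 11 and 2, eBayes with trend and robust options 32 and 8, and leaving out the less specific probe sets (_s_at, _x_at) 10 and 3 of 41 genes. Quantile normalization gave 18 and 8, and averaging the probe sets of each gene 25 and 3. A pseudocount of 64 and leaving out the dimmest 60% gave 24 and 5 each. Leaving out 1 sample gave 9 to 16 higher and 2 to 3 lower member calls, the fewest higher without mutated replicate 1 or parental replicate 3. The share of members called was 14.9% to 24.3% in those fits, against 41% to 47.5% of all genes. It was 24.3% with median centring (48.4% of all genes), 17.6% with no filter (30.2%) and 31.7% without those suffixes (48.7%). It was 37.8% with averaging (50.5%), and 39.2% with that pseudocount (52.4%) and that filter (61.6%). The median log2 change was −0.018 over the members, −0.024 over the large and 0.031 over the small subunit with median centring. Over all genes it was −0.041 with that centring, against 0.038 in the main fit. The members' median lay 0.023 above that of all genes in both fits. For the small subunit the median log2 change was 0.046 as the mean of probe sets and 0.0072 without those suffixes. These fits differ in samples, genes tested or scaling, and the cause of each change was not tested further. MRPL41 turned sign as the mean of its probe sets (0.047), and MRPS16 (−0.14) and MRPS15 (−0.42) without those suffixes.

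With the replicate number as a block 13 members rose and 3 fell, which is 21.6%, against 45.9% of all genes. In that fit 3 of the 8 regulators fell, and GARS1 (adjusted p = 0.052) and GATB (0.080) did not pass. Same-numbered samples had correlations of their deviations of 0.11, 0.03 and 0.11, so the numbers were not taken to pair the samples, although each sample correlated best with its own number. Dim probe sets are the least precise.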
